A study of Mus musculus with 6 samples.

Results

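The genes described here encode 10 factors linked to the heterochromatin mark H3K9me3, the trimethylated lysine 9 of histone H3. They are Setdb1, Atf7ip, Cbx1, Cbx3, Cbx5, Mphosph8, Tasor, Pphln1, Morc3 and Smarcad1. They were chosen by symbol as known partners of TRIM28 silencing, and all 10 were found among the 30619 rows of the count table. Hearts were taken from mouse embryos at E12.5, counted in embryonic days, and their poly(A) RNA was sequenced, with 3 wild-type control libraries and 3 libraries titled as a Trim28 conditional knockout (CKO), whose genotype entry says knockdown instead. The sources used here give neither the strain, the Cre driver, the exons removed nor the embryos per library, and they do not state that replicates were separate animals. P-values therefore measure the spread between these libraries, and how much of it is technical is not known.

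TRIM28 is a scaffold protein that KRAB zinc finger proteins bring to chosen DNA sequences, among them retrotransposons and imprinted regions. Its SUMO-modified form recruits SETDB1, which methylates H3K9, and HP1 proteins bind both the methylated histone and TRIM28 itself. The HUSH complex also reads the mark and works with SETDB1 to silence newly inserted and transcribed repeats. The mRNA levels below say how much transcript of each factor the hearts held, and not how much protein was bound to chromatin.

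Trim28 (chromosome 7, 12999114 to 13031035) had 305, 391 and 443 CPM (counts scaled to a common library size) in the controls, given here and below in the order of replicates 1, 2 and 3. The libraries labelled CKO 1, 2 and 3 held 172, 314 and 165 CPM. The library labelled CKO 2 lay inside the control range, so Trim28 does not bear out its label and every direction below rests on the labels. Trim28 was not called by edgeR's quasi-likelihood test (log2 fold change -0.81, SE 0.34, adjusted p = 0.34). Other features differed between libraries as well, and some of them between the groups. A ribosomal RNA row took 0.126% to 0.522% of the counts in controls and 0.563% to 0.79% in CKO libraries. Y-linked transcripts summed to between 0.026 (control 2) and 124 CPM in controls and between 99.4 and 208 CPM in CKO, so the groups overlapped. Controls 1 and 3 had 80.7 and 124 CPM, so control 2 was not a technical repeat of either. Library totals ran from 34400841 to 39763233 counts. Summed over 6 cardiomyocyte markers, controls had 25216 to 26631 CPM and CKO libraries 26908 to 27718, in keeping with the heart label, while 4 liver markers together reached at most 0.935 CPM in a library.

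In hearts labelled CKO, Atf7ip alone of the 10 genes was called lower, and none was called higher. Among all 17557 genes tested with edgeR, 1.07% were called lower and 3.03% higher, 4.10% in all, so a single call among 10 genes says little about the group. The SETDB1 pair, the HP1 genes and Smarcad1 had negative log2 fold changes, whereas the HUSH genes and Morc3 had positive ones, which made 6 negative and 4 positive. Negative fold changes made up 49.2% of all tested genes and 53.2% of those with a mean log2 CPM of 5 or more. The median log2 fold change of the 10 was -0.07, beside 0.00 for all tested genes. In 4 of the 10 (Setdb1, Atf7ip, Cbx3 and Cbx5) each CKO library lay below each control, and in none did each lie above. Over all tested genes the groups stood apart in 22.1%, with CKO below control in 10.6%. The range that holds the 10 genes, a mean log2 CPM of 5 or more, has 6539 tested genes. Of these, 992 had each CKO library below each control and 843 each above, and 122 were called lower and 286 higher. Differences of the 10 genes in either direction had a median absolute log2 fold change of 0.09. It was 0.13 over all tested genes and 0.08 over those 6539.

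**Figure D1:**
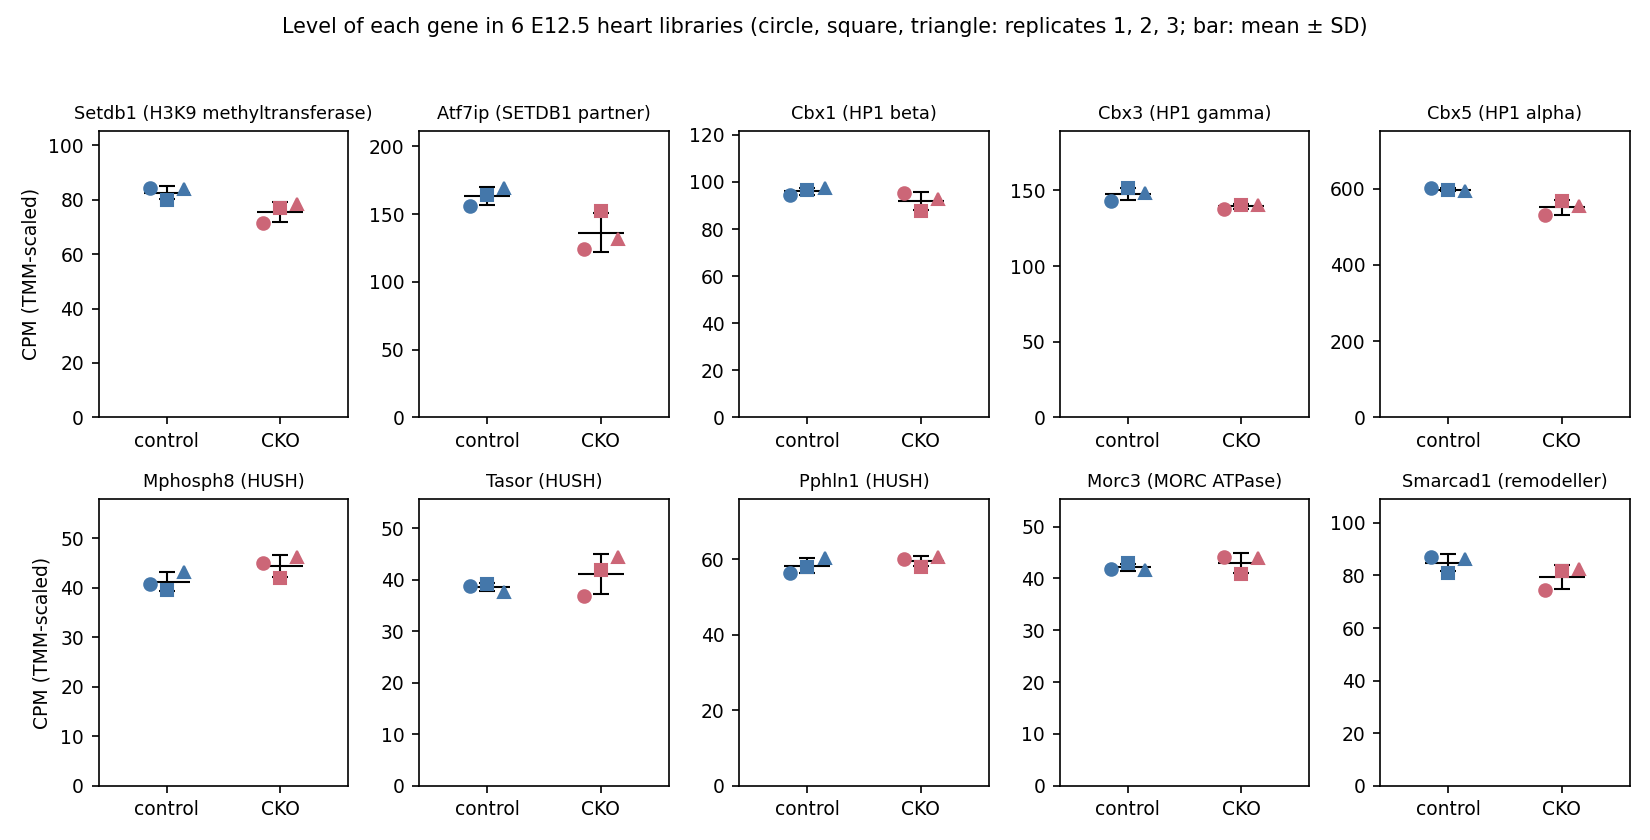
Each panel plots 1 gene's CPM (TMM-scaled, linear axis from 0) in the 3 control (blue) and 3 CKO (red) libraries, with the mean and SD as bars. The CKO points of Setdb1, Atf7ip, Cbx3 and Cbx5 all lie below the control points, and the groups overlap in the other 6 genes.

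The promoters of the SETDB1 pair and of 2 HUSH genes are shown because these pairs had fold changes of opposite sign. Sequences are from RefSeq (GRCm38.p6, the mm10 build), 5′ to 3′ on the gene's strand, and end at the base before the RefSeq start, except that 49 bases are left out for Atf7ip, where GENCODE M21 places exons of the gene. Capitals mark matches on either strand to the CCAAT box (CCAAT), the GC box (GGGCGG) and the ETS motif (CCGGAAG).
Atf7ip, chr6:136518601-136518801, plus strand: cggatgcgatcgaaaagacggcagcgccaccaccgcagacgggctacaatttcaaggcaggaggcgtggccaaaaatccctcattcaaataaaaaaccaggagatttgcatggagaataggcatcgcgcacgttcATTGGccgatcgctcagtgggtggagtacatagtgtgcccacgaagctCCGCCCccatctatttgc
Setdb1, chr3:95357203-95357452, minus strand: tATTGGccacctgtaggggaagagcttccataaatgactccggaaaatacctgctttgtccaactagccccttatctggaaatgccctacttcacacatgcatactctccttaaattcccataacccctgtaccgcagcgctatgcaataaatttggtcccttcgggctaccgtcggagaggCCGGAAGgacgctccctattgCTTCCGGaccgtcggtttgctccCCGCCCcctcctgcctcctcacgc
Mphosph8, chr14:56667998-56668247, plus strand: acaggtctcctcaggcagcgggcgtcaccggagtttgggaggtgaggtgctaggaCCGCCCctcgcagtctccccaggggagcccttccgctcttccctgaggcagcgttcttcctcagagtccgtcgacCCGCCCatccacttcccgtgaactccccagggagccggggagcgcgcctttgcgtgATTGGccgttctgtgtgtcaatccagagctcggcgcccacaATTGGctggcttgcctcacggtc
Tasor, chr14:27428584-27428833, plus strand: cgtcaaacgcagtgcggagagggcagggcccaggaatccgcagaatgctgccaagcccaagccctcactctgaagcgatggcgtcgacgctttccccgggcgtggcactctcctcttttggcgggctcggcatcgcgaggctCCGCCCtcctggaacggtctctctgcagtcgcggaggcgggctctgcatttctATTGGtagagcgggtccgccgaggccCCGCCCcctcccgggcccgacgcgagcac

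Each of these 4 windows held a GC box and a CCAAT box, and the Setdb1 window also held 2 ETS matches. Over the 250 bases before the start, 8 of the 10 genes had a GC box and 6 a CCAAT box, beside 32.7% and 33.8% of the 32851 promoter windows of that length in the RefSeq table. Pphln1, the other HUSH gene, and Smarcad1 had neither, and Cbx1 and Cbx3 had no CCAAT box. The ETS motif was present in Setdb1 only, 1 of 10, and in 6.91% of the windows. A TATA box (TATAAA) was in none of the 10 and in 12.4% of the windows. The CRE motif (TGACGTCA, in 1.55% of the windows) was also in none of the 10. The 10 windows held 13 to 46 CpG dinucleotides, beside a median of 6 over all windows, with the highest number in Pphln1 and the lowest in Setdb1 and Smarcad1. The RefSeq start of Atf7ip lies 12684 bases downstream of the GENCODE start of the gene, so another promoter of this gene is not shown. For Cbx3 the RefSeq start lies 256 bases downstream of the GENCODE start, so the window counted for it lies inside the gene. On the other strand, GENCODE M21 places an exon of Gm37500 over all 250 bases of the Setdb1 window. It also places an exon of Gm4032 over 127 bases of the Mphosph8 window. For Pphln1, an exon of the protein-coding gene Zcrb1 covers 172 bases of the window, also on the other strand.

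Setdb1 (ENSMUSG00000015697.14, chromosome 3, 95323525 to 95357202, minus strand) encodes the H3K9 methyltransferase of the pathway. It stood at 84.2, 79.8 and 83.8 CPM in the control libraries, compared with 71.3, 77.0 and 78.3 CPM in the CKO libraries. The CKO libraries were all lower, though CKO 3 came within 1.48 CPM of control 2. The means were 82.6 ± 2.46 and 75.5 ± 3.74 CPM (SD, n = 3 each). This gave a log2 fold change of -0.13 (SE 0.06), a difference of -8.57% with a 95% interval from -16.2% to -0.225%. It had an unadjusted p of 0.0449 in the edgeR model and was not called after adjustment over all tested genes (adjusted p = 0.27). No alternative called it, with adjusted p from 0.19 to 0.81. The part of Setdb1's exons that overlaps genes on the other strand is 1.09% for Cers2 and 3.63% for Gm37500, and it is not given whether counting used strand.

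Atf7ip (ENSMUSG00000030213.12, chromosome 6, 136506167 to 136610862, plus strand) encodes the partner that keeps SETDB1 in the nucleus and protects it from degradation. Its levels were 156, 164 and 169 CPM in the control libraries, compared with 124, 153 and 132 CPM in the CKO libraries. Each CKO library was below each control, by at least 3.79 CPM, and the highest of the CKO values was that of CKO 2. The mean fell from 163 ± 6.47 to 136 ± 14.6 CPM (SD, n = 3 each). The edgeR test called it (adjusted p = 0.034), with a log2 fold change of -0.26 and an SE of 0.07, a change of -16.5% with a 95% interval from -24.3% to -7.98%. By p it stood at rank 562 of 17557 tested genes.

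The call of Atf7ip rested on most of the libraries. Only without CKO replicate 2 was it still called (log2 fold change -0.35, adjusted p = 0.00019). It was not called without control replicate 1 (adjusted p = 0.066), control replicate 2 (0.13), control replicate 3 (0.16), CKO replicate 1 (0.086) or CKO replicate 3 (0.18), where the log2 fold change ran from -0.30 to -0.21. It was called in 10 of 12 other fits with all 6 libraries, DESeq2 and limma-voom among them. The exceptions were the fit with the ribosomal RNA share as a covariate (-0.17, adjusted p = 0.71) and that with Y-linked expression as a covariate (-0.27, adjusted p = 0.15). The ribosomal RNA share did not overlap between the groups, so that fit cannot separate the share from the group. Y-linked expression was 0.026 CPM in control 2 and at least 80.7 CPM in any other library, so that covariate mostly sets control 2 apart. In bulk tissue, fewer cells of a type and less RNA per cell cannot be told apart. Endothelial markers moved in the same direction, with 3 of 4 called lower (Cdh5, Kdr and Tek, in 3, 1 and 6 of the 6 fits without 1 library, and none of them with the ribosomal RNA share as a covariate) and a sum of 877 to 910 CPM in controls and 707 to 826 CPM in CKO. Of 10 proliferation genes, 2 were called lower, with a sum of 2146 to 2188 CPM in controls and 1942 to 1966 CPM in CKO. Macrophage markers went the other way without a call (0 of 4), from a sum of 47.6 to 49.0 CPM in controls to 56.7 to 63.7 CPM in CKO. Erythroid markers (0 of 5 called) summed to 1013 to 1759 CPM in controls and 905 to 1004 CPM in CKO. Of 4 mesenchymal markers 1 was called lower, with overlapping sums (3016 to 3610 CPM in controls and 3115 to 3804 CPM in CKO). Of 6 cardiomyocyte markers 1 was called higher. Epicardial and neural markers had no call (0 of 4 each), with 2 and 4 of their fold changes positive. The part of these markers, of the ribosomal RNA share or of Y-linked expression in the Atf7ip result was not tested.

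**Figure D2:**
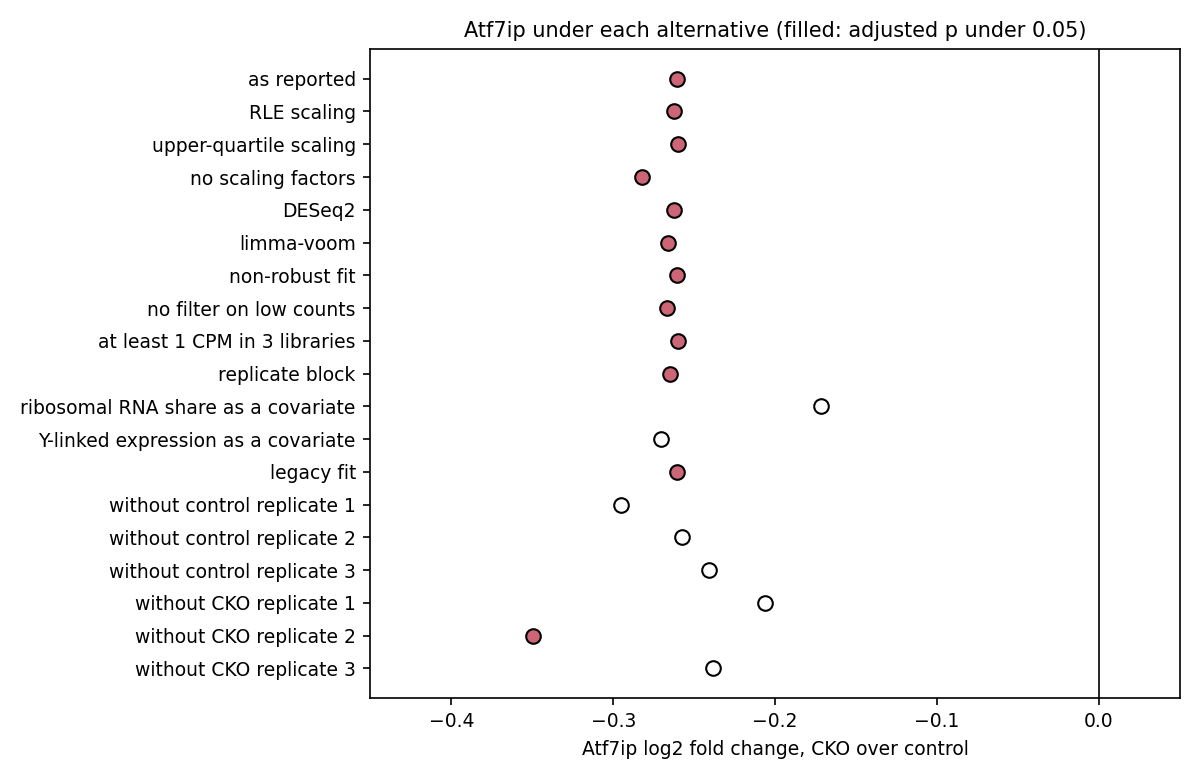
The log2 fold change of Atf7ip, CKO over control, is plotted for the reported fit and for each alternative, filled where the adjusted p was under 0.05. All points lie below 0, and those without 1 library are open except the one without CKO replicate 2.

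The transcript of Atf7ip was compared with that of Setdb1 inside each library, where scaling cancels. Per kilobase of coding transcript, the log2 ratio of Atf7ip to Setdb1 was 0.10, 0.25 and 0.22 in the control libraries, compared with 0.01, 0.20 and -0.04 in the CKO libraries. The groups overlapped through CKO 2. The mean log2 ratio was 0.19 ± 0.08 in controls and 0.06 ± 0.12 in CKO (SD, n = 3 each), a difference of -0.13. A two-sided exact permutation test gave p = 0.2, or 0.6 after adjustment over 3 ratios, and 3 libraries against 3 cannot go below 0.1. The difference moved with single libraries. It was -0.20 without CKO replicate 2 and -0.18 without control replicate 1, where the groups did not overlap, and -0.09 without CKO replicate 3, where they did. With 1 library fewer the exact test cannot go below 0.2, so these values carry no call.

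The HP1 genes encode chromodomain proteins that bind H3K9me3 and each other. Cbx5 (HP1 alpha, ENSMUSG00000009575.14, chromosome 15, 103191544 to 103239816, minus strand) reached 601, 598 and 595 CPM in the control libraries, compared with 531, 567 and 555 CPM in the CKO libraries. The controls spanned 6.4 CPM, and the nearest CKO library lay 27.3 CPM below them. The means were 598 ± 3.2 and 551 ± 18.7 CPM (SD, n = 3 each). The log2 fold change of -0.12 (SE 0.05), or -7.84% with a 95% interval from -14.1% to -1.09%, had an unadjusted p of 0.0258 in the edgeR model and was not called (adjusted p = 0.20). Leaving out 1 library at a time gave adjusted p from 0.084 to 0.40.

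Cbx3 (HP1 gamma, ENSMUSG00000029836.15, chromosome 6, 51470360 to 51483704, plus strand) is the HP1 protein most often found in the bodies of active genes. It stood at 143, 151 and 149 CPM in the control libraries, compared with 138, 140 and 141 CPM in the CKO libraries. The gap between the groups was 2.52 CPM, less than the 8.32 CPM that the controls spanned. Its log2 fold change was -0.08 (SE 0.05, adjusted p = 0.45), with a 95% interval from -12.4% to 1.89%. The annotation holds 8 pseudogenes named after Cbx3, of which 7 had a row in the table and at most 56 counts in a library, beside 4828 to 5831 for Cbx3 itself. How reads shared with these copies were counted is not stated and was not tested, so the value of Cbx3 is uncertain to that extent.

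Cbx1 (HP1 beta, ENSMUSG00000018666.13, chromosome 11, 96789127 to 96808640, plus strand) had 94.3, 96.4 and 97.3 CPM in the control libraries, compared with 95.2, 87.7 and 92.7 CPM in the CKO libraries. CKO 1 lay inside the control range and the other CKO libraries below it. Its log2 fold change was -0.06 (SE 0.06, adjusted p = 0.63), with a 95% interval from -11.9% to 3.91%. Summed over the 3 HP1 genes, controls held 838 to 846 CPM and CKO libraries 763 to 795. All 3 had negative fold changes, and none was called in the reported fit or in any alternative.

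The make-up of the HP1 transcript pool was compared inside each library. Per kilobase of coding transcript, Cbx3 supplied 41.5 ± 0.636% of the summed HP1 level in controls and 41.8 ± 0.107% in CKO (SD, n = 3 each). Cbx5 supplied 36.7 ± 0.647% and 36.0 ± 0.952%, and Cbx1 21.8 ± 0.2% and 22.2 ± 1.06%. The shifts of 0.256, -0.681 and 0.425 percentage points had p = 0.7, 0.4 and 0.6 in two-sided exact permutation tests (0.7 each after adjustment over 3 shares), and the groups overlapped for each gene. With 3 libraries a group these tests could not have passed 0.05. Single libraries set the size of the shifts. Without CKO replicate 2 the Cbx1 share was 0.958 points higher in CKO and the Cbx5 share 1.16 points below control (a shift of -1.16), with no overlap in either. Without CKO replicate 1 the shifts were -0.101 and -0.209 points, with overlap. The Cbx3 shift was 0.546 points without control replicate 2, where the groups did not overlap, and -0.0844 without control replicate 1. The shares depend on the transcript length used, since Cbx5 has 8988 bases of merged coding transcript and Cbx3 1961.

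**Figure D3:**
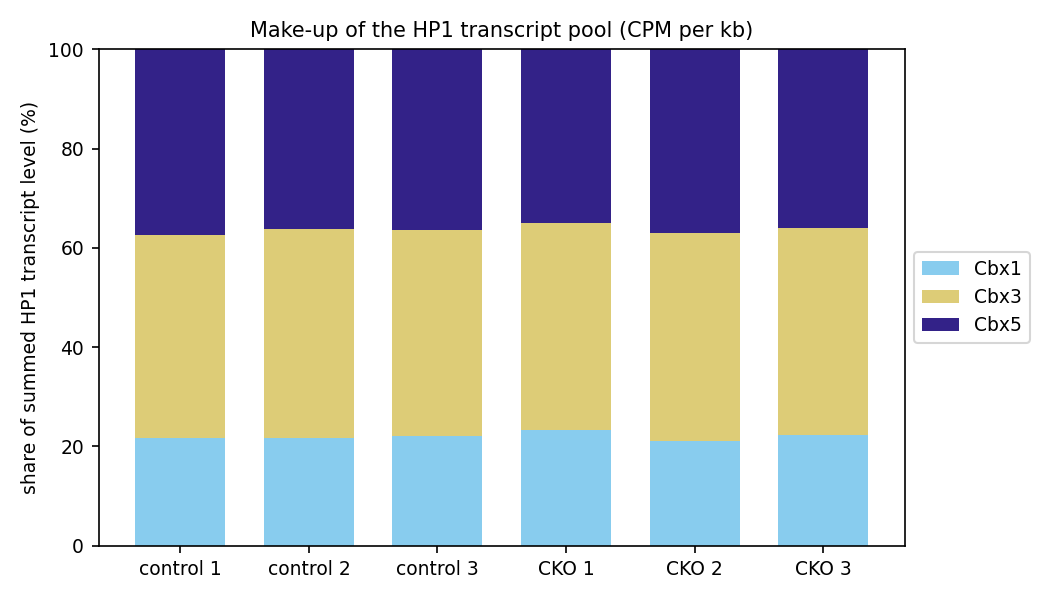
Stacked bars give the percentage of the summed HP1 transcript level (CPM per kilobase) supplied by Cbx1, Cbx3 and Cbx5 in each of the 6 libraries. Cbx3 is the largest part in each bar, at 40.8% to 42.1%, and Cbx5 runs from 35.1% to 37.4%.

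The HUSH complex joins the H3K9me3 reader MPP8, the scaffold TASOR and periphilin. Mphosph8 (encodes MPP8, ENSMUSG00000079184.10, chromosome 14, 56668248 to 56697430, plus strand) had 40.9, 39.6 and 43.3 CPM in the control libraries, compared with 45.03, 42.0 and 46.3 CPM in the CKO libraries. CKO 1 and 3 were above the controls and CKO 2 inside their range. For this gene the log2 fold change was 0.11 (SE 0.07, adjusted p = 0.46), with a 95% interval from -2.65% to 19.7%. A long non-coding gene on the other strand, Gm16973, overlaps 10.7% of its exons.

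Tasor (named Fam208a in GENCODE M21, ENSMUSG00000040651.9, chromosome 14, 27428834 to 27483555, plus strand) had 38.8, 39.1 and 37.7 CPM in the control libraries. The CKO libraries had 36.9, 41.9 and 44.5 CPM, on both sides of the controls. Their spread was wider, with an SD of 3.85 CPM against 0.755 CPM (n = 3 each). Its log2 fold change was 0.09 (SE 0.08, adjusted p = 0.59), with a 95% interval from -4.67% to 19.4%, and without CKO replicate 3 it was 0.03. Ccdc66, on the other strand, overlaps 12.9% of its exons and had 577 to 663 counts in a library where Tasor had 1337 to 1760.

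Pphln1 (encodes periphilin, ENSMUSG00000036167.16, chromosome 15, 93398350 to 93491510, plus strand) had 56.5, 58.0 and 60.5 CPM in the control libraries, compared with 60.0, 57.9 and 60.7 CPM in the CKO libraries. The groups overlapped almost fully. Its log2 fold change was 0.03 (SE 0.06, adjusted p = 0.86), with a 95% interval from -6.67% to 11.8%. The 3 HUSH genes summed to 136 to 141 CPM in controls and 142 to 152 CPM in CKO, which nearly touched. Their intervals leave room for rises of up to 19.7% and falls of up to 6.67%.

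Ratios between HUSH subunits overlapped between the groups. Per kilobase, the log2 ratio of Mphosph8 to Tasor was 1.47 ± 0.09 in controls and 1.49 ± 0.15 in CKO (SD, n = 3 each, two-sided exact permutation p = 0.9). That of Pphln1 to Tasor was 1.57 ± 0.08 and 1.51 ± 0.14 (exact permutation p = 0.6, or 0.9 after adjustment over 3 ratios). In both ratios the highest value was that of CKO 1, where Tasor was lowest. Without CKO replicate 1 the difference in the Pphln1 to Tasor ratio went from -0.06 to -0.14 and the groups did not overlap, and that in the Mphosph8 to Tasor ratio went from 0.02 to -0.06 with overlap.

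Morc3 and Smarcad1 encode ATPases. MORC3 binds methylated histone tails and takes part in silencing endogenous retroviruses, and SMARCAD1 is a nucleosome remodeller that binds TRIM28. Morc3 (ENSMUSG00000039456.10, chromosome 16, 93832121 to 93876073, plus strand) had 41.9, 43.0 and 41.7 CPM in the control libraries, compared with 44.2, 40.9 and 44.0 CPM in the CKO libraries. Its CKO values fell on both sides of the controls, and the log2 fold change was 0.03 (SE 0.07, adjusted p = 0.89, 95% interval from -7.69% to 12.7%). Smarcad1 (ENSMUSG00000029920.9, chromosome 6, 65042583 to 65116061, plus strand) had 87.2, 81.1 and 86.3 CPM in the control libraries, compared with 74.3, 81.9 and 82.3 CPM in the CKO libraries. Its groups overlapped because control 2 lay below CKO 2 and 3. The log2 fold change was -0.09 (SE 0.06, adjusted p = 0.47, 95% interval from -14.3% to 2.45%).

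**Figure D4:**
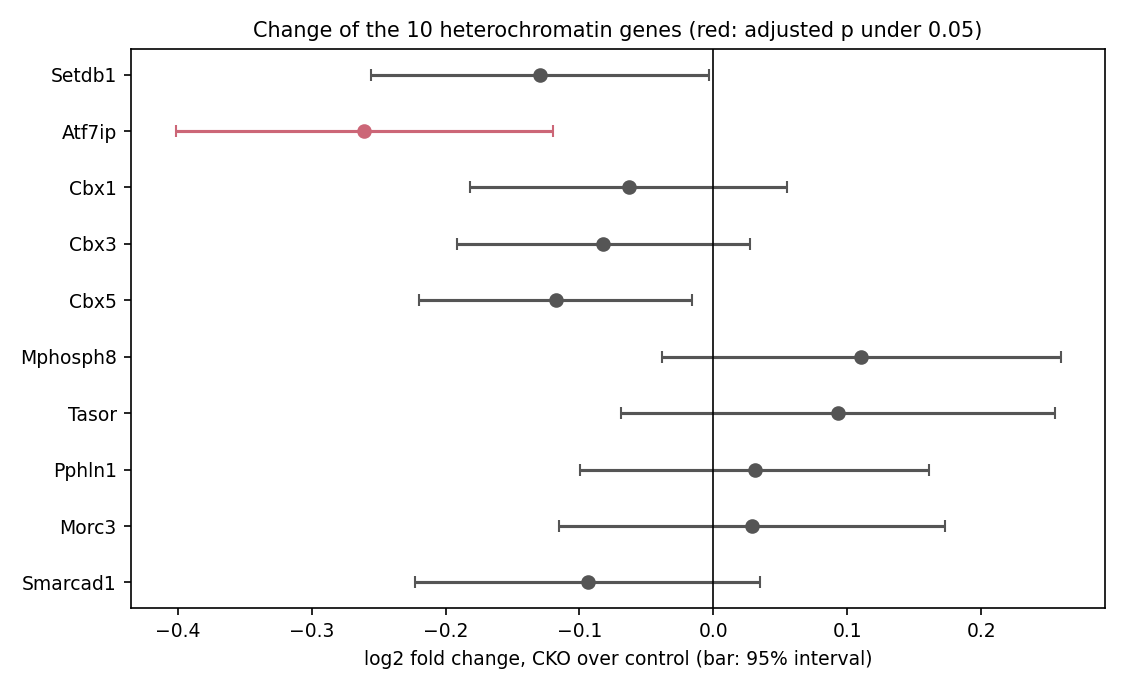
Points give the log2 fold change of each gene, CKO over control, and bars its 95% interval from the edgeR model, before any adjustment for the number of genes. The intervals of Setdb1, Atf7ip and Cbx5 lie below 0 and the other 7 include 0, and Atf7ip (red) is the gene with an adjusted p under 0.05.

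Among the tested genes, the 10 genes ranked from the 67.1 percentile of control CPM (Tasor) to the 99.1 percentile (Cbx5). CPM favours long transcripts, and ranked per kilobase the 10 ran from the 49.0 percentile (Tasor) to the 95.5 percentile (Cbx3). Compared per kilobase of coding transcript in controls, Cbx3 stood highest at 75.3 ± 2.15 CPM per kb (SD, n = 3), before Cbx5 at 66.5 ± 0.356 and Cbx1 at 39.5 ± 0.634. Atf7ip followed at 20.3 ± 0.803, Setdb1 at 17.7 ± 0.528, Smarcad1 at 15.3 ± 0.595, Pphln1 at 15.03 ± 0.522 and Mphosph8 at 14.0 ± 0.643 CPM per kb. Morc3 at 10.1 ± 0.162 and Tasor at 5.08 ± 0.0995 CPM per kb were the lowest. The HP1 genes thus had more transcript per kilobase than Setdb1 or any HUSH gene, and the HUSH scaffold gene Tasor had the least. The levels of Smarcad1 and Pphln1, and of Pphln1 and Mphosph8, differed by less than the sum of their SDs. In CKO the levels of Atf7ip (16.9 ± 1.81 CPM per kb) and Setdb1 (16.2 ± 0.802) also differed by less than that sum. The order of the genes also depends on the length used, which the SDs do not cover. Cbx3 has 1961 bases of merged coding transcript but 5992 bases of merged exons in all, and Atf7ip has 8059 and 20726. Levels over all exons were not compared. The median coefficient of variation in controls was 2.92% for these genes, beside 3.86% over the tested genes with a mean log2 CPM of 5 or more.

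Among the other genes of the pathway, few passed the test. Of 6 other H3K9 methyltransferase genes (including the G9a-GLP cofactor Wiz) none was called. All 6 had negative log2 fold changes (median -0.13), beside 49.2% of all tested genes. Ehmt1, which encodes GLP, averaged 113 ± 4.49 CPM in controls against 100.1 ± 4.29 in CKO (SD, n = 3), a log2 fold change of -0.18 that missed the threshold (adjusted p = 0.10), and Setdb2 had a log2 fold change of -0.42 (adjusted p = 0.20). The Setdb2 value ran from -0.54 to -0.23 without single libraries and was -0.76 with the ribosomal RNA share as a covariate, and none of these was called. Of 9 H3K9 demethylase genes none was called, with 4 negative and 5 positive (median 0.07), among them Kdm3b (-0.14, adjusted p = 0.17) and Kdm1a, which encodes LSD1 (0.15, adjusted p = 0.19). Of 16 genes of the SUMO pathway none was called (median -0.04), and Pias1, a SUMO ligase gene, had the smallest adjusted p (-0.21, adjusted p = 0.13) before Sumo3 (-0.10, adjusted p = 0.43). Ehmt1, Kdm1a and Pias1 were each called in 1 of the 6 fits without 1 library, that without CKO replicate 2 (adjusted p = 0.027, 0.020 and 0.035).

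Of 12 other partners of SETDB1 and HUSH, Trim28 included, none was called (median -0.08). Chaf1b, a subunit of the chromatin assembly factor CAF-1, averaged 37.9 ± 1.59 CPM in controls against 32.1 ± 2.91 in CKO (SD, n = 3), with a log2 fold change of -0.24 (adjusted p = 0.11). Resf1, which encodes a SETDB1-binding protein that helps silence retroelements, had 38.6, 31.9 and 38.0 CPM in the control libraries, compared with 58.0, 39.8 and 56.5 CPM in the CKO libraries. Its CKO libraries were all above the controls, with CKO 2 nearest to them, and the log2 fold change of 0.51 (SE 0.15) was not called (adjusted p = 0.13). It was called in 5 of the 12 other fits with all 6 libraries, DESeq2 (adjusted p = 0.0011), limma-voom (0.036) and the replicate block (0.0016) among them. Without CKO replicate 2 the log2 fold change was 0.66 (adjusted p = 3.5e-06), and in the other fits without 1 library it was not called (adjusted p up to 0.30).

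A list of 12 HP1-linked and other chromodomain genes held 2 called genes, both lower, and none higher (median -0.11). Both encode Polycomb chromodomain proteins and are not HP1 genes. Cbx2 averaged 50.04 ± 1.19 CPM in controls against 40.9 ± 3.87 in CKO (SD, n = 3), a log2 fold change of -0.29 (adjusted p = 0.031). Cbx6 averaged 182 ± 4.1 CPM against 154 ± 12.6 (SD, n = 3), a log2 fold change of -0.25 (adjusted p = 0.022). Each kept its call without CKO replicate 2 only (adjusted p up to 0.17 for Cbx2 and 0.11 for Cbx6 without another library), and neither was called with the ribosomal RNA share (0.58 and 0.38) or Y-linked expression (0.16 and 0.11) as a covariate. The proliferation genes called lower were Kif11 (-0.23, adjusted p = 0.015) and Mcm6 (-0.20, adjusted p = 0.037). All 10 genes of this list had negative fold changes (median -0.15), beside 49.2% of all tested genes. Kif11 and Mcm6 were each called in 2 of the 6 fits without 1 library, those without CKO replicate 1 or CKO replicate 2. Neither was called with the ribosomal RNA share (adjusted p = 0.44 and 0.40) or Y-linked expression (0.099 and 0.26) as a covariate.

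**Figure D5:**
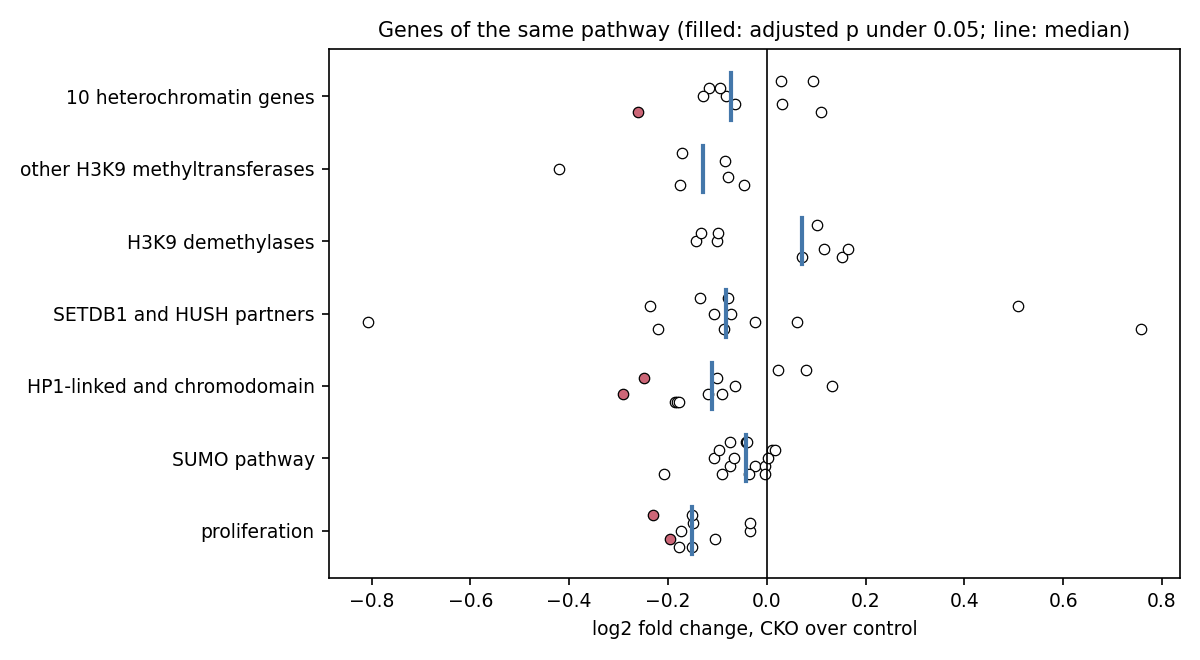
Each point is the log2 fold change, CKO over control, of 1 gene of the named list, filled where the adjusted p was under 0.05, with the list's median as a line. Atf7ip, Cbx2, Cbx6, Kif11 and Mcm6 are the filled points, all below 0, and the medians run from -0.15 to 0.07.

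Germline genes, which H3K9 methylation helps keep silent in somatic cells, were used as a readout of silencing. Of 18 such genes, 16 had a row in the table and 5 passed the filter on low counts, so 11 were not in the reported fit. None of the 5 was called higher. Mov10l1 was called lower, at 42.6 ± 3.78 CPM in controls against 34.6 ± 2.35 in CKO (SD, n = 3), a log2 fold change of -0.30 with an adjusted p of 0.039, and this gene also gives rise to a heart-specific helicase transcript. It was called in 1 of the 6 fits without 1 library (that without CKO replicate 1), with adjusted p up to 0.23 in the others, and not with limma-voom (adjusted p = 0.056), the replicate block (0.066) or either covariate (0.50 and 0.34). The other 4 (Ddx4, Dmc1, Tdrd1 and Slc25a31) had at most 115 counts in any library. The 11 genes removed by the filter were tested in the fit of all 30619 rows, where 7 had positive log2 fold changes and 1 was called, higher. That gene was Sycp1 (adjusted p = 0.015), which encodes a protein of the synaptonemal complex, and its 35 counts all came from CKO 3, with 0 in the other 5 libraries. The other 10 had at most 15 counts in a library.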

How the data were processed

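The authors deposited raw counts of reads by gene symbol, named as such per the labels, on the mm10 build per the submitters' processing notes. The aligner, counter, annotation and strand setting are not stated in the sources used. Columns were matched to samples by title. Positions and lengths came from GENCODE M21 for 30210 rows, 58 of them through an older symbol listed by RefSeq. Genes with low counts were removed (filterByExpr, minimum count 10, total 15), which left 17557. Counts were scaled with TMM factors and tested with edgeR 4.0.16 in R 4.3.3 (glmQLFit, robust, group as the only term, two-sided), adjusted by Benjamini-Hochberg over all tested genes and called under 0.05. SE is the fold change over the square root of F, and intervals use the model's degrees of freedom. Levels per kilobase divide CPM by the merged exons of coding transcripts in the GENCODE basic set. Shares and ratios used exact permutation tests in SciPy 1.17.1. The pipeline was tested on simulated data. Alternatives were RLE, upper-quartile or no scaling, DESeq2 1.42.0, limma-voom 3.58.1, a non-robust fit, other filters, a replicate block, covariates, a threshold of 0.01 and leaving out each library. A legacy fit was added after the data were seen. The genes and lists were chosen with earlier results of these data known. Named genes are the 10 genes, Trim28, and up to 4 called genes per pathway list by smallest adjusted p, or up to 2 where none was called. The 3 endothelial genes and 5 germline genes beside Mov10l1 were named after their values were seen.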

Additional observations from a re-analysis of the deposited data

How the results depend on the processing

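The sign of the log2 fold change held in all 209 values of the 10 genes and Trim28 under the alternatives. The threshold of 0.01 and the non-robust fit keep the fold changes of the reported fit, so their signs could not differ. Of the 209 values, 199 kept their side of the threshold. Among the others, 8 belong to Atf7ip and 2 to Trim28, which limma-voom (adjusted p = 0.017) and the non-robust fit (adjusted p = 0.019) called. The number of the 10 genes called lower was 0 with either covariate and at an adjusted p under 0.01, and 0 to 1 without single libraries. Over all genes, higher and lower calls numbered 53 and 3 with the ribosomal RNA covariate, 274 and 36 with the Y-linked covariate, 863 and 388 without a filter and 247 and 34 under 0.01, and DESeq2 called 321 lower. Without single libraries they ranged from 255 to 1012 and from 39 to 540. With the replicate block, 518 higher and 158 lower genes were called, and Atf7ip was called. Deviations of same-numbered libraries from their group means were nearly uncorrelated (-0.0022, 0.017 and 0.0014), beside -0.025 to 0.025 for differently numbered ones. The labels do not say whether the numbers mark pairs, and with 3 libraries a group these values cannot decide it. The block changed no call of the 10 genes; Resf1 gained a call with it, and Mov10l1 and Mcm6 (adjusted p = 0.061) lost theirs. Without single libraries the shifts in HP1 share ran from -0.101 to 0.958 points for Cbx1, from -0.0844 to 0.546 for Cbx3 and from -1.16 to -0.209 for Cbx5. The log2 ratio differences ran from -0.20 to -0.09 for Atf7ip to Setdb1, from -0.06 to 0.08 for Mphosph8 to Tasor and from -0.14 to -0.01 for Pphln1 to Tasor. The cause of these changes was not tested, and the fit with the ribosomal RNA covariate cannot separate the share from the group. Only 3 libraries a group were available, which limits the precision of differences this small.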
